A study of Mus musculus with 8 samples.

Results

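The 40 genes described here act in DNA repair and in mitosis, and they were chosen by symbol for these roles. The choice was made with earlier results of these data known, so the shares given for these genes are descriptive. They comprise 9 genes of homologous recombination and the Fanconi pathway, 8 of damage signalling and chromatin, 7 helicases, mismatch repair factors and polymerases, 12 of the kinetochore, the spindle and chromosome segregation, and 4 of proliferation and the cell cycle. All 40 symbols matched 1 gene each among the 21951 protein-coding genes of GENCODE M21. A total of 35 of the 40 genes (87.5%) carried an m6A peak in at least 1 of the 4 peak lists, beside 32.2% of all coding genes (7076 genes). Overlapping peaks of the lists merged into 74 regions on these genes, out of 11965 regions on coding genes.

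Bone marrow-derived macrophages (BMDMs) came from mice of 8 weeks on the C57BL/6 background and were grown for 7 days with M-CSF at 40 ng/mL. Both Mettl3 alleles were floxed in all mice. The 2 WT mice were Mettl3 fl/fl Lyz2 +/+, and the 2 KO mice were Mettl3 fl/fl Lyz2 cre/+, in which Cre is driven by the Lyz2 locus, active in macrophages and also in granulocytes and some dendritic cells. In MeRIP-Seq, an anti-m6A antibody enriches fragments of methylated RNA, which are then sequenced together with unselected input. Each mouse gave 1 IP library, 1 input library and 1 list of peaks. The lists are named WT-1 and WT-2, then KO-1 and KO-2, and series of 4 values follow this order.

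The lists held between 6159 and 6684 peaks, of which 97.0% to 97.3% overlapped an exon of a coding gene on the same strand. They hold no read counts, so the depth behind a peak is unknown and the presence, width and position of peaks were compared, not their levels. A missing peak does not show that a transcript is unmethylated or absent, and in bulk RNA fewer cells that express a gene and less RNA per cell cannot be told apart. Mettl3 had no peak in any list, so the deleted gene gave no check of the genotypes. Among macrophage markers, Mertk had a peak in all 4 lists, Fcgr1 in both WT lists and Cd14 in WT-2, while Csf1r, Adgre1, Cd68, Itgam, Spi1 and Lyz2 had none. Of 6 T cell, 4 B cell, 6 granulocyte, 4 dendritic cell, 4 erythroid and 4 stromal markers, 2, 1, 0, 1, 0 and 3 had a peak in at least 1 list. On the Y chromosome, 4 peaks were listed in WT-1 and 0 in each other list.

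N6-methyladenosine (m6A) is written on nuclear RNA by a complex with METTL3 as its catalytic subunit, most often at an A that follows GG or GA and precedes C, and is enriched in long internal exons and around stop codons. Repair genes guard the genome by detecting breaks, recombining broken ends and removing mispaired bases. Mitotic genes attach chromosomes to the spindle, hold sister chromatids together and delay division until all are attached. BMDMs proliferate in response to M-CSF, and many of these genes are transcribed mainly in dividing cells. Several of them carry most of their coding sequence in 1 very long exon.

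The longest such exon was exon 12 of Mki67, of 6836 bp (chr7:135694232-135701067, minus strand, GRCm38), which encodes the tandem repeats of the Ki-67 protein. It held 25 copies of GGAC, the letters at the core of the m6A motif, and peaks covered between 88.2% and 95.8% of it in each list. The following 30 bases recurred in 4 copies of its repeat, each under a peak in all 4 lists. They are shown because the same GGAC context was covered 4 times in 1 exon. Bases are counted from 1 at the 5′ end of the exon. The base given for a copy is that of the first G of its GGAC, and the coordinates span all 30 bases. Capitals mark GGAC here and in the sequences that follow.
Mki67, base 1686, chr7:135699365-135699394: ggaaattcaacaGGACataagaggaggcca
Mki67, base 3453, chr7:135697598-135697627: ggaaattcaacaGGACataagaggaggcct
Mki67, base 3816, chr7:135697235-135697264: ggaaattcatcaGGACataagaggaggcca
Mki67, base 4167, chr7:135696884-135696913: ggaaattcatcaGGACataagaggaggcca
The copies at bases 3453, 3816 and 4167 each differed from that at base 1686 at 1 of 30 positions. The spacings between neighbouring copies were 1767, 363 and 351 bases. Reads from one copy could be placed on another, so the peaks on the single copies are uncertain.

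Regions shared by all 4 lists are shown for 8 genes by the 21 bases around the GGAC nearest the middle of the stretch that all 4 lists covered. They give the sequence at the sites where the lists coincided. For Wrn the site lies in the 3′-UTR, and for the other 7 genes in the coding sequence.
Mki67, exon 12, chr7:135697603-135697623, minus strand: attcaacaGGACataagagga
Rev3l, exon 13, chr10:39822228-39822248, plus strand: agtcttttGGACtatatggaa
Rif1, exon 30, chr2:52112329-52112349, plus strand: gccactgaGGACtttaattca
Atrx, exon 9, chrX:105875743-105875763, minus strand: aaagaagaGGACtcttctgaa
Msh6, exon 4, chr17:87986821-87986841, plus strand: acgatactGGACcaaaacgat
Mdc1, exon 8, chr17:35850903-35850923, plus strand: ggggtgaaGGACcttgaggga
Kif20b, exon 19, chr19:34950064-34950084, plus strand: gagcagagGGACaggatcctg
Wrn, exon 34, chr8:33235990-33236010, minus strand: ttgcatagGGACagatatgaa

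The 150 bases with the most GGAC inside the stretch covered in all 4 lists are shown for Msh6 and Atrx, to give the sequence around these sites. The Msh6 window held 4 copies of GGAC near the 3′ end of exon 4, and the Atrx window held 2 in exon 9.
Msh6, chr17:87986798-87986947, plus strand: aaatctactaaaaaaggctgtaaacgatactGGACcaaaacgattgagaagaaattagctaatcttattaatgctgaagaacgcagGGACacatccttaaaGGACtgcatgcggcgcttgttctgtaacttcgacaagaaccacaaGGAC
Atrx, chrX:105875117-105875266, minus strand: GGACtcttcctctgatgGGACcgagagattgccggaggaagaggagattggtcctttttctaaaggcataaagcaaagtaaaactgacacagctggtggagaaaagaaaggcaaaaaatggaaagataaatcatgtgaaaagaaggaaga

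The 4 lists held 43, 27, 49 and 53 peaks on the 40 genes. The KO lists held more than either WT list, and WT-2 stood lowest. WT BMDMs had a mean of 35 ± 11.3 peaks and KO BMDMs one of 51 ± 2.83 (SD, n = 2 each). The two-sided exact permutation test gave p = 0.33, which is as low as 4 lists in 2 groups can reach. The difference of 16 peaks was 8 without WT-2 and 24 without WT-1. The peaks fell on 26, 22, 26 and 30 of the 40 genes in list order. These numbers overlapped between the genotypes, with means of 24 ± 2.83 and 28 ± 2.83 in WT and KO BMDMs (SD, n = 2 each, exact permutation p = 0.667).

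Exonic bases under the peaks of the 40 genes came to 30280, 19679, 36544 and 40854 in list order. Both KO lists covered more bases of these genes than either WT list, and WT-2 again stood lowest. The difference between the means was 13720 bases (exact permutation p = 0.33), and 8419 bases without WT-2. The KO lists were also longer over all coding genes, with 4235311 and 4784306 exonic bases beside 3911422 and 4042742 in the WT lists. The 40 genes took 0.774%, 0.487%, 0.863% and 0.854% of the covered bases, so their share was also higher in the KO lists. The part of WT-2 alone in this difference was not tested beyond leaving it out.

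**Figure D1:**
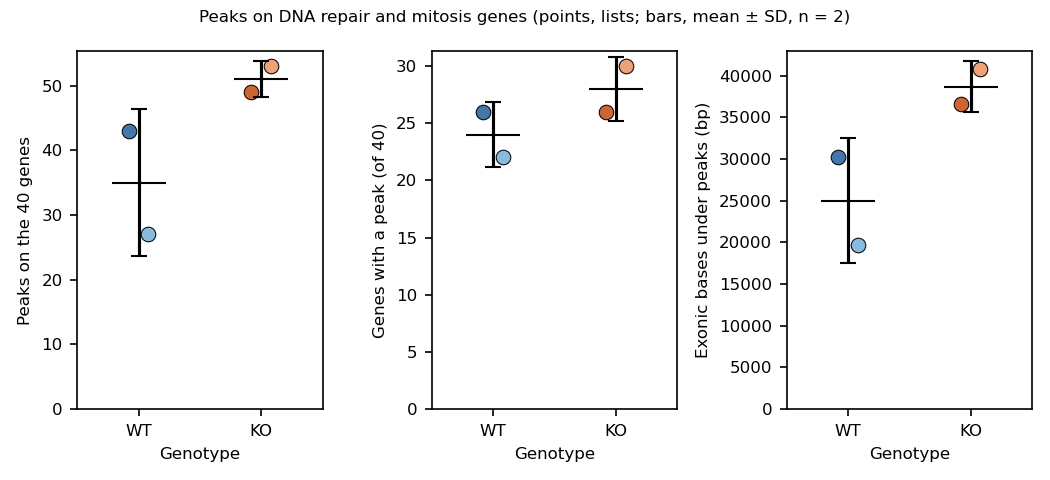
Peaks on the 40 genes, genes with a peak and exonic bases under peaks (bp), for the 2 WT and the 2 KO lists. Points are lists and bars are mean ± SD (n = 2); WT-2 is the lowest point in each panel, and the KO lists lie above both WT lists for peaks and bases but not for genes.

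Presence in all 4 lists was seen for 15 of the 35 genes with a peak (42.9%), beside 30.3% of all genes with a peak. Counted by region, 14 of the 74 regions (18.9%) were present in all 4 lists, beside 18.1% of all regions on coding genes, so the share of regions was near that of all genes. A further 14 regions were present in 3 lists, 13 in 2 lists and 33 in 1 list. The 14 shared regions lay on 12 genes, namely Brca2, Atrx, Mdc1, Rif1, Rad50, Wrn, Msh6 (2 regions), Rev3l, Mki67 (2 regions), Kif20b, Esco1 and Rbl2. Slx4, Trp53bp1 and Cenpe had a peak in every list without a shared region.

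The genes with peaks in both KO lists and neither WT list were Atm, Topbp1 and Kif14. These were 3 of 35 genes (8.57%), beside 4.90% of all genes with a peak. No gene (0 of 35) had peaks in both WT lists and neither KO list, beside 3.86% of all genes with a peak. Without WT-1, 7 of 35 genes were in both KO lists and not in WT-2, beside 11.8% of all genes with a peak in these 3 lists, and 2 were in WT-2 and in neither KO list, beside 15.5%.

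By region, 8 of 74 (10.8%) were found in both KO lists only, beside 6.10% of all regions, and 1 of 74 (1.35%) in both WT lists only, beside 3.33%. The 8 lay on Brca2, Fancm, Slx4, Atm, Trp53bp1, Topbp1, Cenpf and Kif14, and the single WT region lay on Incenp. With 1 list left out the rule is looser, since the genotype that loses a list needs a region in its other list alone. With WT-2 left out, 11 of 73 regions (15.1%) were in both KO lists and not in WT-1, beside 11.5% of all regions, and 12 (16.4%) were in WT-1 and in neither KO list, beside 18.8%. Without WT-1 the KO and WT numbers were 18 and 4 of 64 regions (28.1% and 6.25%), beside 12.6% and 19.6% of all regions. Without KO-1 they were 19 and 1 of 66 (28.8% and 1.52%), beside 20.8% and 5.84%, and without KO-2 they were 18 and 3 of 66 (27.3% and 4.55%), beside 18.8% and 6.29%. The KO share was above that of all regions and the WT share below it in each case, and the excess in KO was smallest without WT-2.

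The covered length was longer in both KO lists than in both WT lists for 15 of the 35 genes (42.9%), beside 18.9% of all genes with a peak. The reverse held for 0 of the 35 genes, beside 8.39%. The 15 genes were Brca2, Fancm, Slx4, Atm, Trp53bp1, Mdc1, Topbp1, Rif1, Msh6, Rev3l, Cenpe, Cenpf, Kif14, Esco1 and Sgo2a. Against WT-1 alone, 16 of 33 genes (48.5%) were longer in both KO lists and 5 (15.2%) were shorter, beside 29.4% and 28.5% of all genes with a peak in these 3 lists. Against WT-2 alone, 20 of 35 (57.1%) were longer and 3 (8.57%) shorter, beside 31.2% and 30.4%. Against both WT lists, 24 of 34 (70.6%) were longer and 2 (5.88%) shorter in KO-2 alone, beside 41.6% and 12.9%, and 18 of 34 (52.9%) and 3 (8.82%) in KO-1 alone, beside 34.0% and 16.2%.

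**Figure D2:**
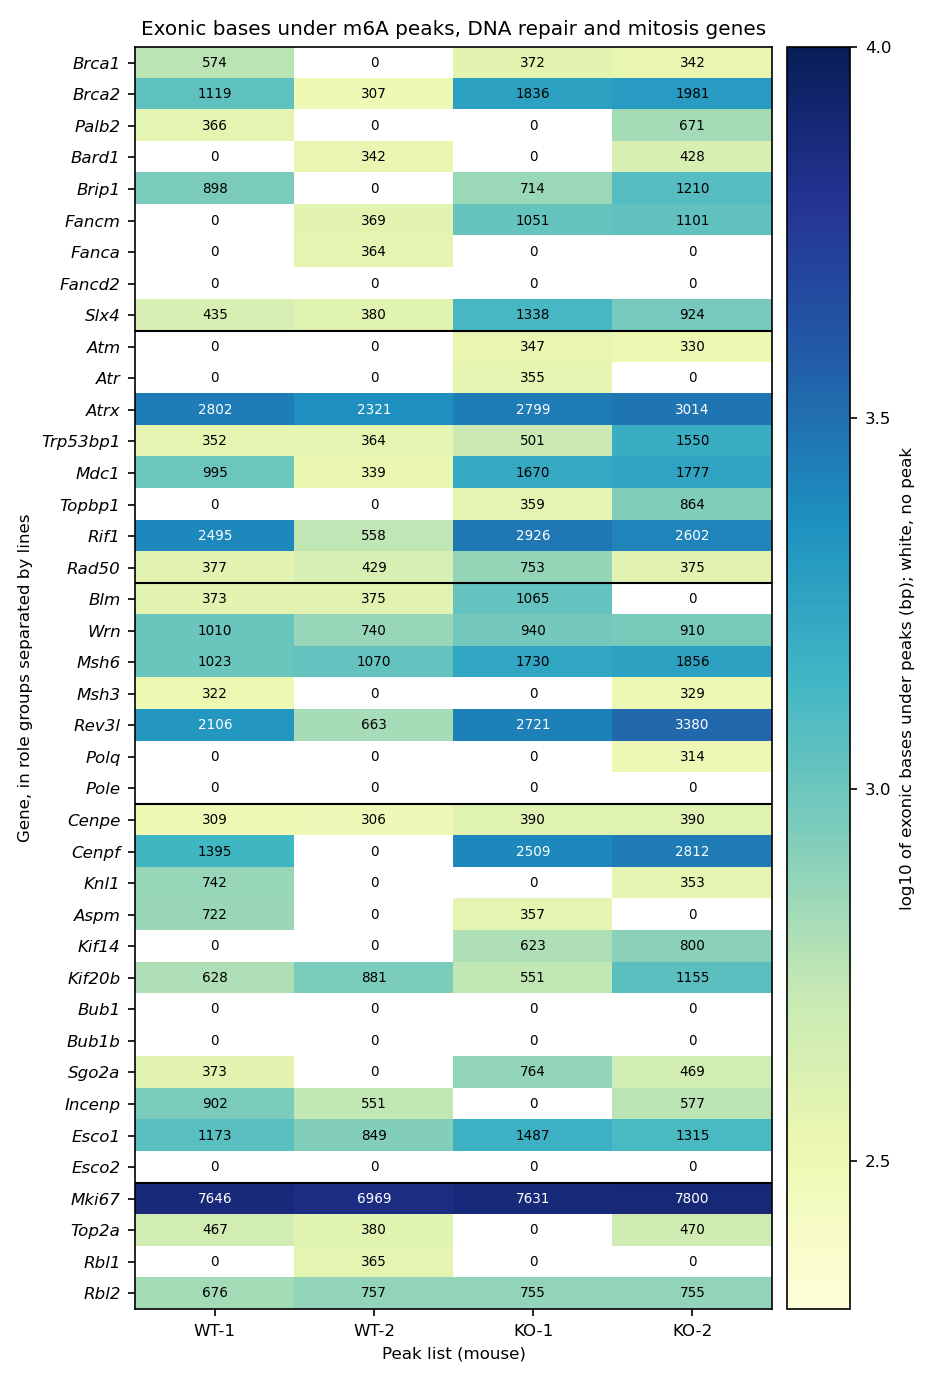
Exonic bases under m6A peaks (bp, in each cell) for the 40 genes in the 4 lists, coloured on a log10 scale, with black lines between the role groups. Mki67 stands out with 6969 to 7800 bases in every list, and Fancd2, Pole, Bub1, Bub1b and Esco2 have no peak.

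In homologous recombination and the Fanconi pathway, 8 of 9 genes carried a peak and 2 of 9 did so in all 4 lists. Brca2, which loads the recombinase onto broken DNA, had 2, 1, 4 and 4 peaks. They lay on exon 10, of 1107 bp, and on exon 11, of 4809 bp (chr5:150538649-150543457), and covered 1119, 307, 1836 and 1981 exonic bases. The KO lists covered more of the gene than either WT list. A region of exon 10 (chr5:150536062-150536834) was present in every list but WT-2. On exon 11, a merged region spanned all 4 lists (chr5:150541122-150542424), but no base of it lay under peaks in every list. The region chr5:150540710-150541079 was a peak with the same ends in KO-1 and KO-2 and was absent from the WT lists.

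Brca1, which forms a ubiquitin ligase with Bard1, had 1 peak in every list but WT-2. All 3 lay on exon 10, of 3315 bp (chr11:101523325-101526639), and no pair of them overlapped. Their widths were 574 bp in WT-1, 372 bp in KO-1 and 342 bp in KO-2, so the exon showed no recurrent position. Bard1 had 1 peak in WT-2 and KO-2, both on exon 4. Palb2, which bridges Brca1 and Brca2, had 1 peak in WT-1 and 1 in KO-2, on different exons, and that of KO-2 filled exon 5, of 671 bp, from end to end.

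Fancm, a translocase that anchors the Fanconi complex on DNA, had 0, 1, 2 and 2 peaks, all on exon 14, of 1864 bp. They covered 0, 369, 1051 and 1101 bases, and both KO lists held an extra region at chr12:65105181-65105933. Slx4, the scaffold of structure-specific nucleases, had 1, 1, 3 and 2 peaks. The WT-1 peak lay in the 5′-UTR, and the others lay mainly on exon 11, of 2186 bp. Exon 6, of 317 bp (chr16:3991472-3991788), was covered from end to end in KO-1 and KO-2 but not in the WT lists. Brip1, a helicase that binds Brca1, had 1, 0, 1 and 2 peaks, with a region at the start of the last exon that WT-2 alone lacked. Fanca had 1 peak in WT-2, off its longest coding transcript, and Fancd2 had none.

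In damage signalling and chromatin, all 8 genes carried a peak and 5 did so in all 4 lists. Atrx, a chromatin remodeller that deposits histone variants in heterochromatin, had 1 peak in each list on exon 9, of 3014 bp (chrX:105874560-105877573). It was 2802, 2321, 2464 and 3014 bp wide and filled the exon in KO-2. The 4 lists shared 2301 bases, and the widths overlapped between the genotypes. All 4 peaks had a score of 3100, which 9.92%, 12.5%, 15.6% and 18.7% of the peaks of the lists shared and at most 0.942% exceeded, so they could not be ranked further. Score percentiles are given as the percent of peaks in the same list with a lower score, with ties at their middle rank. This tied score stands at percentiles 94.7, 92.8, 91.6 and 89.9 in list order, and these values give no rank among the tied peaks. A second peak, in the 5′-UTR, was listed in KO-1.

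Rif1, which acts with Trp53bp1 at breaks and times replication, had 1, 1, 3 and 2 peaks, covering 2495, 558, 2926 and 2602 exonic bases. WT-2 covered least, and WT-1 lay close to KO-2. On exon 30, of 3090 bp (chr2:52109911-52113000), KO-1 and KO-2 listed the same 2 peaks to the base, of 1671 and 931 bp, where WT-1 had 1 peak of 2495 bp and WT-2 had 1 of 558 bp. Mdc1, the adaptor that binds phosphorylated histone at breaks, had 2, 1, 3 and 3 peaks and 995, 339, 1670 and 1777 exonic bases. Its shared region on exon 8 (chr17:35850389-35851005) had score percentiles of 86.6 and 68.9 in the WT lists and the tied score of 3100 in both KO lists, and a region on exon 5 was missing in WT-2 alone. Rad50, a subunit of the complex that senses broken ends, had a 3′-UTR region in all 4 lists (chr11:53650227-53650655) with 375 bases in common. The widths there were 377, 429, 375 and 375 bp, with score percentiles from 39.1 in KO-1 to 99.9 in WT-1.

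Trp53bp1, which favours end joining over recombination, had 1, 1, 1 and 3 peaks. The WT peaks lay in the 5′ part of exon 12, of 1297 bp, and KO-1 had its peak in the 3′ part of the exon, while KO-2 had peaks in both parts and on exon 17. Atm, the kinase that answers double-strand breaks, had 0, 0, 1 and 1 peaks. Both lay at the start of its last exon across the stop codon (chr9:53439583-53439929), were 347 and 330 bp wide and ranked at percentiles 81.7 and 74.9. Topbp1, which activates the kinase Atr, had 0, 0, 1 and 2 peaks, with a region around exon 19 (chr9:103335902-103336282) in both KO lists and a 3′-UTR peak in KO-2. Exon 19 of the longest coding transcript has 103 bp, so the peaks of 359 and 381 bp reached beyond it. Atr had 1 peak, in KO-1, off the longest coding transcript. The WT lists held no peak on Atm, Topbp1 or Atr, and the input levels of these transcripts were not analysed here.

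Among helicases, mismatch repair factors and polymerases, 6 of 7 genes carried a peak and 3 did so in all 4 lists. Msh6, which finds mispaired bases, had 2, 3, 2 and 2 peaks, all on exon 4, of 2536 bp (chr17:87984446-87986981). They covered 1023, 1070, 1730 and 1856 bases, so both KO lists lay above both WT lists. The longer cover in the KO lists came with wider peaks and not with more of them. Both regions, at the 5′ end and at the 3′ end of the exon, were shared by all 4 lists and had 281 and 482 bases in common. The latter holds the Msh6 window printed above.

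Rev3l, the catalytic subunit of the translesion polymerase zeta, had 2, 1, 2 and 2 peaks on exon 13, of 4153 bp (chr10:39821106-39825258). They covered 2106, 663, 2721 and 3380 bases, or 50.7%, 16%, 65.5% and 81.4% of the exon. All lists but WT-2 began at the same base, and 663 bases were shared by all 4 lists, which is the whole WT-2 peak. Wrn, a helicase of the RecQ family, had 3, 2, 2 and 2 peaks and 1010, 740, 940 and 910 exonic bases. Its 3′-UTR region (chr8:33235835-33236347) was shared by all 4 lists. Exon 9, of 427 bp (chr8:33324167-33324593), was a peak from end to end in every list but WT-2, with the tied score of 3100 in WT-1 and at score percentiles of 77.5 and 75.2 in KO-1 and KO-2.

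Blm, the RecQ helicase that dissolves crossed strands, had 1, 1, 2 and 0 peaks, on exons 3 and 7. Msh3, which finds small loops of unpaired bases, had 1 peak in WT-1 and 1 in KO-2 in its 3′-UTR, which did not overlap. Polq, the polymerase theta of alternative end joining, had 1 peak, in KO-2, although its exon 16 has 2981 bp and 14 copies of GGAC. Pole, the polymerase epsilon of the leading strand, had none.

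In the kinetochore, spindle and segregation group, 9 of 12 genes carried a peak and 3 did so in all 4 lists. WT-2 held peaks on 4 of the 12, beside 8 in WT-1, 7 in KO-1 and 8 in KO-2. Kif20b, a kinesin of late mitosis and cytokinesis, had 1 peak in every list on exon 19, of 1234 bp (chr19:34949741-34950974). The widths were 628, 881, 551 and 1155 bp, and the WT lists lay between the KO lists. Esco1, an acetyltransferase of cohesin, had 1 peak in every list on exon 3, of 2130 bp, with widths of 1173, 849, 1487 and 1315 bp. Here both KO peaks were wider than both WT peaks.

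Cenpf, a large protein of the outer kinetochore, had 3, 0, 4 and 4 peaks. They covered 1395, 0, 2509 and 2812 exonic bases, so WT-2 held no peak on a gene with at least 3 in every other list. Peaks lay on exon 12, of 3428 bp (chr1:189656645-189660072), exon 13, of 2832 bp, and exon 16, of 477 bp. On exon 12, KO-1 and KO-2 shared a region (chr1:189657548-189658268) that the WT lists lacked, and WT-1 had a peak elsewhere on the exon. Sgo2a, a shugoshin that protects cohesin at centromeres, had 1, 0, 1 and 2 peaks, of which 1 in every list but WT-2 lay in a merged region of exon 7, of 2625 bp. The second KO-2 peak (chr1:58025885-58026216) could not be placed, and most of it lay beyond the end of the gene at base 58025899.

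Knl1, the scaffold that recruits the checkpoint proteins Bub1 and Bub1b to kinetochores, had 2, 0, 0 and 1 peaks on exon 7, of 4497 bp (chr2:119068123-119072619). They covered 13.7%, 0%, 0% and 7.85% of this exon and did not overlap between the lists. Aspm, which organises spindle poles, had 2, 0, 1 and 0 peaks. On its exon 18, of 3795 bp (chr1:139477346-139481140), 1 peak of 370 bp was listed in WT-1 and no peak in the other lists. In each list these 2 exons were covered less than the long exons of Mki67, Atrx or Rif1, though that of Rif1 had 18.1% in WT-2. Exon 10 of Brca1, exon 12 of Cenpf and exon 16 of Polq were covered over at most 17.3%, 21% and 10.5% in any list. Low cover was therefore not particular to Knl1 and Aspm.

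Kif14, a kinesin of cytokinesis, had 0, 0, 1 and 1 peaks, of 623 and 800 bp on exon 1 (chr1:136468081-136468880), which held 6 and 7 copies of GGAC. Incenp, the scaffold of the chromosomal passenger complex, had 2, 1, 0 and 1 peaks. Its region on exon 3, of 737 bp (chr19:9893273-9893853), was present in both WT lists and neither KO list, at low score percentiles of 18.8 and 5.79. Cenpe, a kinesin that carries chromosomes to the spindle equator, had 1 peak in every list, on exon 22 in WT-1 and in the 3′-UTR in the others, where the percentile in WT-2 was 0.279. Bub1, Bub1b and the second cohesin acetyltransferase Esco2 had no peak in any list.

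Among the genes of proliferation and the cell cycle, Mki67, which encodes the Ki-67 protein that coats mitotic chromosomes, had 7, 3, 5 and 5 peaks. They covered 7646, 6969, 7631 and 7800 exonic bases, and the genotypes overlapped. On exon 12 the peaks covered 91.7%, 95.8%, 88.2% and 89.4% of the bases and 23, 24, 20 and 21 of its 25 copies of GGAC. A total of 5678 bases were covered in all 4 lists. The widest peaks were 3291, 4245, 5631 and 5647 bp, and both WT lists had a break nearer the 5′ end of the exon that the KO lists lacked. Exon 13, of 417 bp (chr7:135693080-135693496), was a peak from end to end in all 4 lists, at score percentiles of 87.7 and 23.6 in the WT lists and with the tied score of 3100 in both KO lists. A region on exon 6 and the 3′-UTR region were missing in WT-2 alone.

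Rbl2, a pocket protein that represses cell cycle genes in resting cells, had 1 peak in every list at the start of its last exon, in the 3′-UTR (chr8:91122276-91123032). The widths were 676, 757, 755 and 755 bp, with 676 bases in common and 7 copies of GGAC under each peak. All 4 peaks began at the same base, the first of the exon. Its relative Rbl1 had 1 peak, in WT-2. Top2a, the topoisomerase that untangles sister chromatids, had 1 peak in the 3′-UTR in every list but KO-1.

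**Figure D3:**
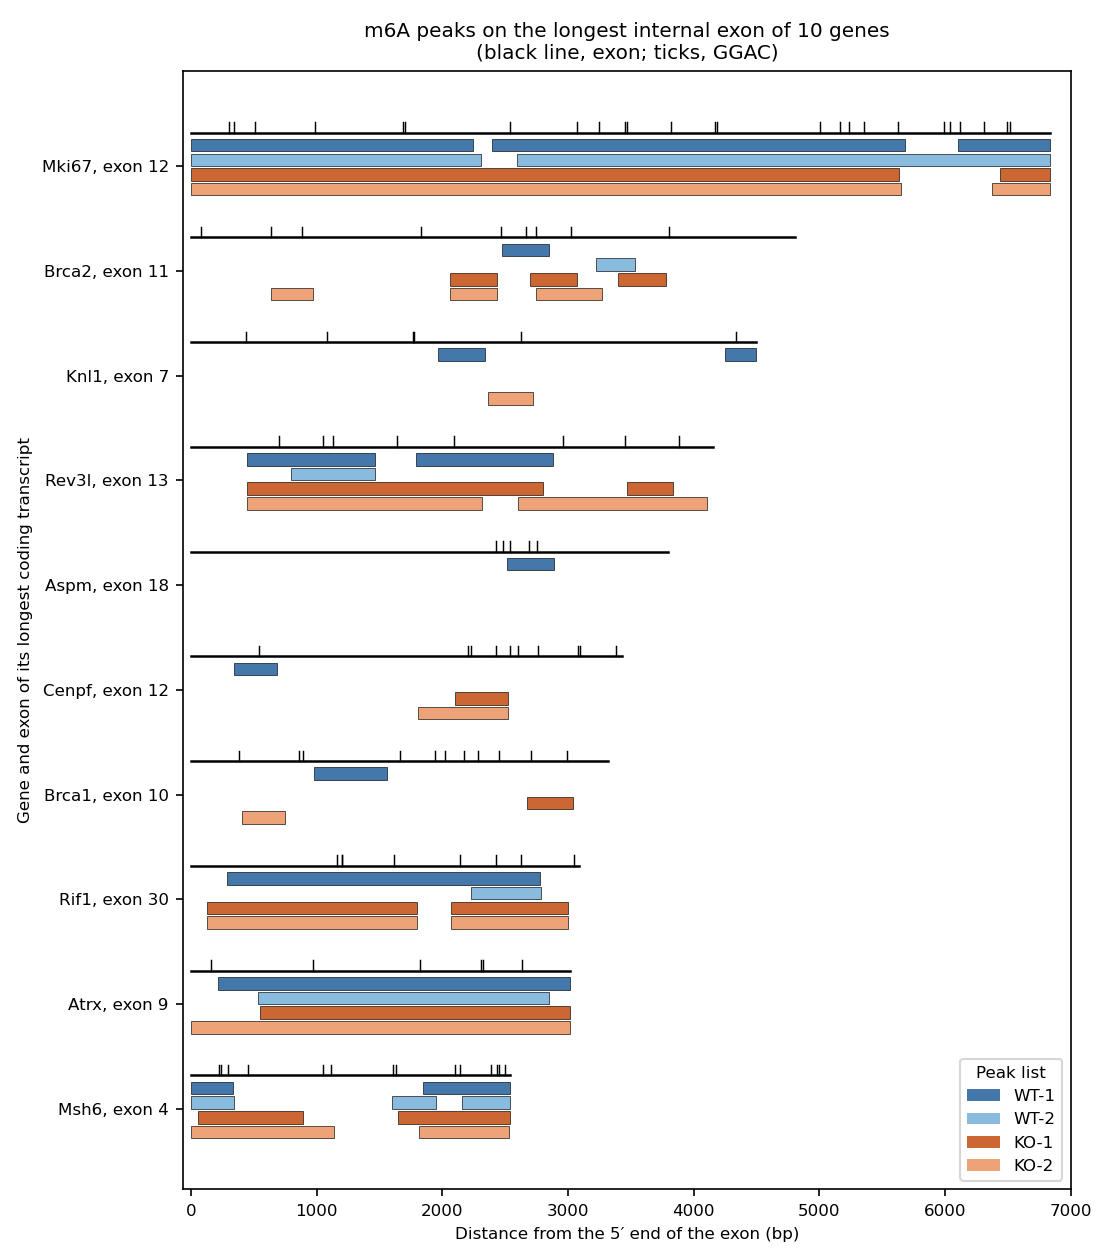
Peaks of the 4 lists (coloured bars) along the longest internal coding exon of 10 genes, drawn to scale in bp from the 5′ end of the exon, with GGAC as ticks. Mki67 and Atrx are covered over most of the exon in every list, while the peaks on Brca1, Knl1 and Aspm are narrow and do not overlap between lists.

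The genes of the list have long internal exons. The longest internal coding exon had a median length of 908 bp over the 40 genes, beside 217 bp over 17465 coding genes with an internal coding exon. That of Mki67 ranked at number 14 among these genes, and those of Brca2, Knl1, Rev3l, Aspm and Cenpf at numbers 42, 52, 65, 78 and 101. All 19 genes of the list with such an exon of 1000 bp or more had a peak, as had 61.2% of the 1050 coding genes in this class. Of these 19, 11 (57.9%) had a peak in all 4 lists, beside 38.7% of the class. Of the 10 genes with one of 300 bp to under 1000 bp, 9 (90%) had a peak, beside 43.7% of the class, and 2 (20%) had one in all 4 lists, near the 16.6% of the class. Of the 11 genes whose longest internal coding exon was under 300 bp, 7 (63.6%) had a peak, beside 31.0% of all coding genes in that class, and 2 had one in all 4 lists (18.2%, beside 6.44%). The 5 genes without a peak were 4 of these 11 and Esco2, whose longest internal coding exon has 790 bp. Expression was not measured in the lists, so its part in these shares was not tested.

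**Figure D4:**
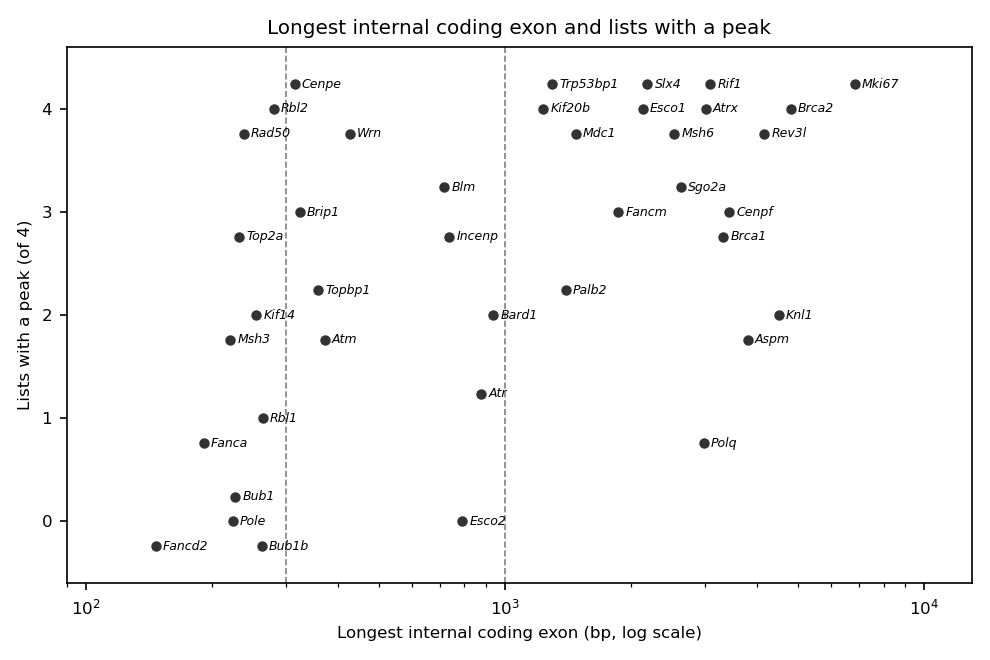
Longest internal coding exon (bp, log scale) and number of lists with a peak for each of the 40 genes, with dashed lines at 300 and 1000 bp. Points are set apart vertically for legibility. Of the 19 genes beyond 1000 bp, 11 have a peak in all 4 lists, and Polq has one in 1 list.

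Peaks were then placed by their midpoint on 1 transcript per gene, that with the longest CDS. Of 172 peaks on the 40 genes over the 4 lists, 166 could be placed, and 135 of them lay in the coding sequence (CDS), 29 in the 3′-UTR and 2 in the 5′-UTR. An internal exon of 1000 bp or more held 93 peaks, one of 400 bp to under 1000 bp held 28, one of 300 bp to under 400 bp held 4 and one under 300 bp held 3. The last exon held 34 and the first held 4.

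The CDS held 83.3%, 73.1%, 83.0% and 82.4% of the placed peaks on the 40 genes, and 49.0%, 47.1%, 54.3% and 51.8% of those on other genes. The difference was 29.9 ± 3.47 percentage points (SD over 4 lists, exact sign-flip permutation p = 0.13, the smallest that 4 lists allow) and had the same direction in 4 of 4 lists. The CDS made up 81.0% of the transcript bases of the 40 genes and 50.3% of those of the 7041 other genes with a peak, so that the share of peaks was close to the share of bases in both sets.

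Internal exons of 400 bp or more held 76.2%, 73.1%, 70.2% and 72.5% of the placed peaks on the 40 genes. On other genes they held 22.7%, 21.7%, 25.1% and 23.7%. The difference was 49.7 ± 3.58 percentage points (SD over 4 lists, exact sign-flip permutation p = 0.13) in 4 of 4 lists. Such exons made up 28.0% of the transcript bases of the 40 genes and 8.45% of those of the other genes. The share of peaks was thus above the share of bases in both sets, and is not particular to the 40 genes in this respect. An internal coding exon of this length is present in 25 of the 40 genes. Between these 25 and the 3627 other genes with such an exon, the difference was 32.8 percentage points for the long internal exon share and 21.6 for the CDS share, with the same direction in 4 of 4 lists. With all 40 genes set against the same 3627, the differences were 16.7 and 11 percentage points. Exon lengths were not matched in these contrasts. The longest internal coding exon had 1000 bp or more in 19 of the 25 genes, and in 1050 of all coding genes. The part of exon length in these differences was not tested. These contrasts were chosen after the data were seen.

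**Figure D5:**
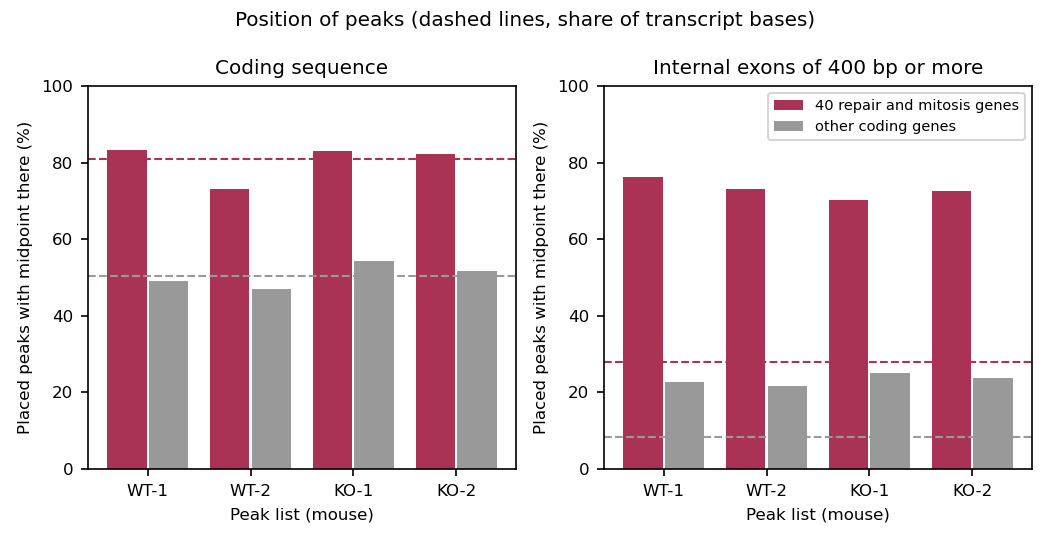
Share of placed peaks (%) with the midpoint in the coding sequence (left) and in internal exons of 400 bp or more (right), per list, for the 40 genes and for other coding genes, with dashed lines at the share of transcript bases. The shares of the 40 genes are higher in every list. In both sets of genes the shares lie near the dashed line for the coding sequence and above it for long internal exons.

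The form of the lists bears on these shares. No peak was narrower than 300 bp, and 92.7% to 93.5% of the peaks of a list lay within 1 exon. Over all genes with a peak, 12.9% to 19.4% of internal coding exons of 300 bp to under 400 bp held a peak midpoint, against 0.594% to 0.954% of those of 200 bp to under 300 bp and 63.8% to 71.4% of those of 1000 bp or more. On the 40 genes, 71 of 172 peaks began or ended on the first or last base of an exon, and 12 coincided with 1 whole exon. How far the width limit sets the share of long exons was not tested.

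The CDS share of the peaks on the 40 genes was 78.2% ± 7.25 in WT and 82.7% ± 0.443 in KO BMDMs (SD, n = 2, exact permutation p = 1), and the lists of the genotypes overlapped. The share in long internal exons was 74.6% ± 2.20 and 71.4% ± 1.65 (SD, n = 2), so both WT lists lay above both KO lists, at the smallest p that 2 against 2 lists allow (exact permutation p = 0.33). This order turned with the 50% of peaks of the highest scores and with a limit of 1000 bp for a long exon. The median score percentile of the peaks was 59.1, 57.8, 56.5 and 61.2. It lay above 50 in every list and overlapped between the genotypes (exact permutation p = 1). After Benjamini-Hochberg adjustment over the 9 tests, no adjusted p was below 0.562.

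GGAC on the transcript strand occurred 3.5, 4.12, 3.91 and 3.91 times per kb under the peaks of the 40 genes, and 4.63, 4.88, 4.77 and 4.65 times per kb under those of other genes. The density was lower on the 40 genes in each list. It did not differ between the genotypes beyond the spread (3.81 ± 0.435 in WT and 3.91 ± 0.00182 in KO BMDMs, SD, n = 2, exact permutation p = 1). At least 1 GGAC was present in 79.1%, 81.5%, 83.7% and 88.7% of the peaks of the 40 genes, beside 86.8%, 88.5%, 87.0% and 88% of all peaks of the same lists. The longest internal coding exons of 1000 bp or more differed in density, from 1.32 per kb on exon 18 of Aspm and 1.33 on exon 7 of Knl1 to 3.66 on exon 12 of Mki67, 5.52 on exon 4 of Msh6 and 6.40 on exon 11 of Slx4. Among those of 400 bp to under 1000 bp, exon 4 of Atr held 0, exon 4 of Bard1 1.07 and exon 3 of Esco2 1.27 per kb. Exon 16 of Polq, with 4.70 per kb, was covered over 10.5% of its length and in 1 list.

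Of 210 other genes of the same processes, in 7 further lists, 92 (43.8%) had a peak in at least 1 list, beside the 87.5% of the 40 genes and the 32.2% of all coding genes. These shares were not tested against each other, and exon lengths were not matched. Peaks in all 4 lists were found on 15 of the 92 (16.3%), below the 30.3% of all genes with a peak. The single lists held 53, 63, 64 and 76 peaks on 43, 53, 45 and 54 of the 210 genes. Genes with peaks in both lists of 1 genotype only were as many in WT (8 of 92, 8.70%) as in KO (8 of 92, 8.70%) BMDMs, beside 3.86% and 4.90% of all genes with a peak. In recombination, the Fanconi pathway and end joining, 8 of 30 genes (26.7%, below the share of all coding genes) had a peak. Among them were Lig4 and Dclre1c of end joining in all 4 lists and Rbbp8 in the WT lists only. In mismatch and excision repair, 12 of 26 (46.2%) had a peak, with Mlh3 and Ercc5 in all 4 lists and Pms2 and Lig3 in the KO lists only. In the checkpoint, 10 of 18 (55.6%) had a peak, with the ubiquitin ligase Rnf168 in all 4 lists and Rnf8 in the WT lists only.

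In replication, 19 of 39 genes (48.7%) had a peak, 1 of them (Gins3) in all 4 lists. Mcm5, Orc1 and Rrm1 had one in the KO lists only, and Cdt1 in the WT lists only. Among further genes of the kinetochore, checkpoint and spindle, 18 of 48 (37.5%) had a peak, and Mis12 and Cenpc1 had one in all 4 lists. Cenpu and Kif15 had one in the KO lists only, and Birc5 in the WT lists only. In cohesin and condensin, 10 of 21 (47.6%) had a peak, and Nipbl, Mau2, Wapl and Pds5a, which load or release cohesin, had one in all 4 lists. Ncaph2 and Espl1 had one in the WT lists only. In cell cycle control, 15 of 28 (53.6%) had a peak, with E2f3, Lin54 and Cdkn1b in all 4 lists, Ccna2 and Lin9 in the WT lists only and Cdk6 in the KO lists only.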

How the data were processed

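The authors deposited 4 peak lists, 1 per mouse, with a position, a strand and a score for each peak, and the deposited score was used only as a rank within its list. The submitters' processing notes name the build mm10, cutadapt 1.9.3 and HISAT2 2.0.4. The peak caller and its settings are not given in the sources used here. Starts were read as 0-based, since start plus 1 matched exon starts. Each peak was assigned to the protein-coding gene of GENCODE M21 with the largest same-strand exon overlap (at least 1 bp), and its midpoint was placed on the transcript with the longest CDS. Lists were compared by two-sided exact permutation tests. No set was tested for enrichment. The genes and lists were chosen with earlier results of these data known, and covered lengths were compared after the data were seen. The rule for naming genes in full took a region in all 4 lists or peaks in 1 genotype only. It also took the 6 longest internal coding exons. The other genes are given as well, with some or all of their values. Nothing in the labels says that numbers pair the mice, and the correlation of the replicate differences over 12350 regions was 0.00733. On simulated lists the planted pattern was recovered for 98.9% of 800 genes. Sequences were read from GRCm38 with pysam 0.24.0 under Python 3.11.15, with numpy 2.4.6 and matplotlib 3.10.9. Input libraries, reads and per-sample columns beyond these (0 in number) were not used. Some results for single genes are not reported here.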

Additional observations from a re-analysis of the deposited data

How the results depend on the processing

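The excess of coding sequence and of long internal exons in the 40 genes over other genes kept its direction under every alternative run for it. With the 50% of peaks of the highest scores, the KO minus WT difference in the long internal exon share turned to 2.86 percentage points, and it turned to 0.596 with a limit of 1000 bp. With the same 50% of peaks, 7 of the 40 genes were in all 4 lists and 1 was in the WT lists only. In this setting 9 genes were longer in KO and 1 was longer in WT BMDMs. By region, 5 were in all 4 lists and 4 in the KO lists only. This setting holds fewer peaks by construction. Shares over all genes and regions were not computed for it, so these counts are not read as a difference between the genotypes. Leaving out each list in turn gave KO minus WT differences of -1.97 to 2.76 in the median score percentile, -0.668 to 9.59 percentage points in the CDS share and -0.204 to 0.411 GGAC per kb, so these 3 have no stable direction. It gave 0 to 2 genes in the WT lists only, 4 to 7 in the KO lists only, 16 to 24 longer in KO and 2 to 5 longer in WT BMDMs. For covered length, the shares of all genes beside these counts are given with the results above. For genes in 1 genotype only, the results above give them without WT-1 alone. With WT-2, KO-1 or KO-2 left out, the KO shares were 12.1%, 11.8% and 11.8%, beside 11%, 13.4% and 11.7% of all genes with a peak. The WT shares were 0%, 2.94% and 5.88% in the same order, beside 13.6%, 7.22% and 7.55%. By region, leaving out a list gave 13 to 24 in all remaining lists, of 64 to 73 regions on these genes. The share of all regions present in all remaining lists was not computed, so this range is not read as a result. In the WT lists only there were 1 to 12 regions and in the KO lists only 11 to 19. For all these counts a rule over 3 lists is looser by construction. A replicate block left the mean differences as they were, 16 peaks and 13720 bases (sign-flip over 2 pairs), and changed no call. Fixed numbers of peaks per list, a stricter exon overlap, merging within 100 bp and, added after seeing the data, coding transcripts only and leaving out Mki67 moved no count beyond the tolerance used, in which counts within a factor of 1.5 are alike.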
